A study of Rattus norvegicus with 8 samples.

Results

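This account concerns 8 rat genes that mark hepatocytes around the central vein and depend on Wnt signalling there: Glul, Lgr5, Axin2, Tbx3, Rnf43, Oat, Rhbg and Slc1a2. They were picked by name, though with earlier results of these data known, and were found on the array through the RefSeq accession of each probe. All 8 were represented, by 10 probes, with 2 probes each for Glul and Oat, among 25128 genes tested. Liver RNA came from male Wistar/ST rats that all ate a high-fat diet and drank high-fructose water for 5 weeks. The Eucommia group (4 arrays) also received Eucommia ulmoides leaf extract by mouth in the drinking water, and the Control group (4 arrays) did not. The leaves of Eucommia ulmoides, a tree, are drunk as tea. The age of the rats is not given in the sources used here. The labels do not say outright that the 4 arrays of a group are 4 separate rats, so a p-value here speaks only of the variation among these arrays, which may be technical.

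The liver lobule is organised along the blood flow, from the portal tract to the central vein. Endothelial cells of the central vein release Wnt ligands and R-spondin, and the hepatocytes nearest to them respond through beta-catenin and switch on genes for glutamine synthesis and ammonium uptake. In a piece of whole liver these cells are a thin layer, so a lower signal from fewer such cells and one from less RNA per cell cannot be told apart.

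Signals are log2 values of the processed signal minus the array's 75th percentile, so 0 is the signal at that percentile. Differences are Eucommia minus Control on that log2 scale, tested with limma over all genes, and a gene passed at an adjusted p under 0.05. Levels of different probes cannot be compared, because each binds with its own strength. The share of spots well above background ran from 58.9% to 61.5% on Control arrays and from 69.3% to 71.9% on Eucommia arrays. Slide 1 carried the Control arrays and slide 2 the Eucommia arrays, so the effects of slide and of treatment cannot be told apart anywhere in these data. All 8 hepatocyte markers, such as albumin (Alb), were above background on all arrays, with 0 higher and 1 lower (by unadjusted p under 0.05, 0 higher and 4 lower). Some signal of non-hepatic type was present: the pancreatic acinar gene Ctrb1 rose by 1.79 ± 0.15 (SE, adjusted p = 3.82e-05), while Cpb1 (-0.21) and Amy2a3 (-0.16) did not pass. Pnlip, the other of 4 acinar markers tested, did not pass either (0.64 ± 0.63), so of these genes Ctrb1 alone passed. Pnlip was above background on 1 of 4 Control and 4 of 4 Eucommia arrays. Its groups overlapped through Control replicate 2 (-2.90), beside -6.34 to -5.48 on the other Control and -4.52 to -4.29 on the Eucommia arrays. Prss1, Cela1 and Cpa1 were above background on too few arrays to be tested. The muscle gene Tnni2 (0.79 ± 0.09, SE) was higher, the 1 of 6 muscle markers that could be tested. Acta1, Myh4, Ckm and Tnnt3 were above background on too few arrays, and Mylpf had no probe named here. The bile duct gene Cftr was higher, at least 2.75-fold under this scaling. Cftr was above background on 0 of 4 Control and 4 of 4 Eucommia arrays, so it entered the test through the Eucommia arrays alone. With normexp background correction and quantile normalization its difference was 0.45. Epcam, also of bile ducts, was lower (-0.52 ± 0.13). Of 6 Kupffer cell markers 0 passed by limma (0 higher and 2 lower by unadjusted p under 0.05). All 6 had negative differences, with a median of -0.58. The log2 of their summed signals ran from 5.68 to 6.37 on Control and from 5.33 to 5.98 on Eucommia arrays. Clec4f, the brightest probe (Control mean 5.69), makes up most of that sum. The part of these non-hepatocyte signals in the results below was not tested.

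Of the 8 pericentral genes, 1 was higher in the Eucommia group and 0 were lower. That gene was Lgr5, a receptor for R-spondins. Among all genes tested, 18.4% were higher and 6.17% lower, 24.6% in either direction, so this count of higher genes is near the background. By unadjusted p under 0.05 the counts were the same, 1 and 0. Lgr5 was also the one member whose groups did not overlap, a state met by 19.8% of all genes toward higher and 8.68% toward lower values. The other 7 genes were well above background on all 8 arrays, and their differences lay between -0.30 and 0.38.

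**Figure D1:**
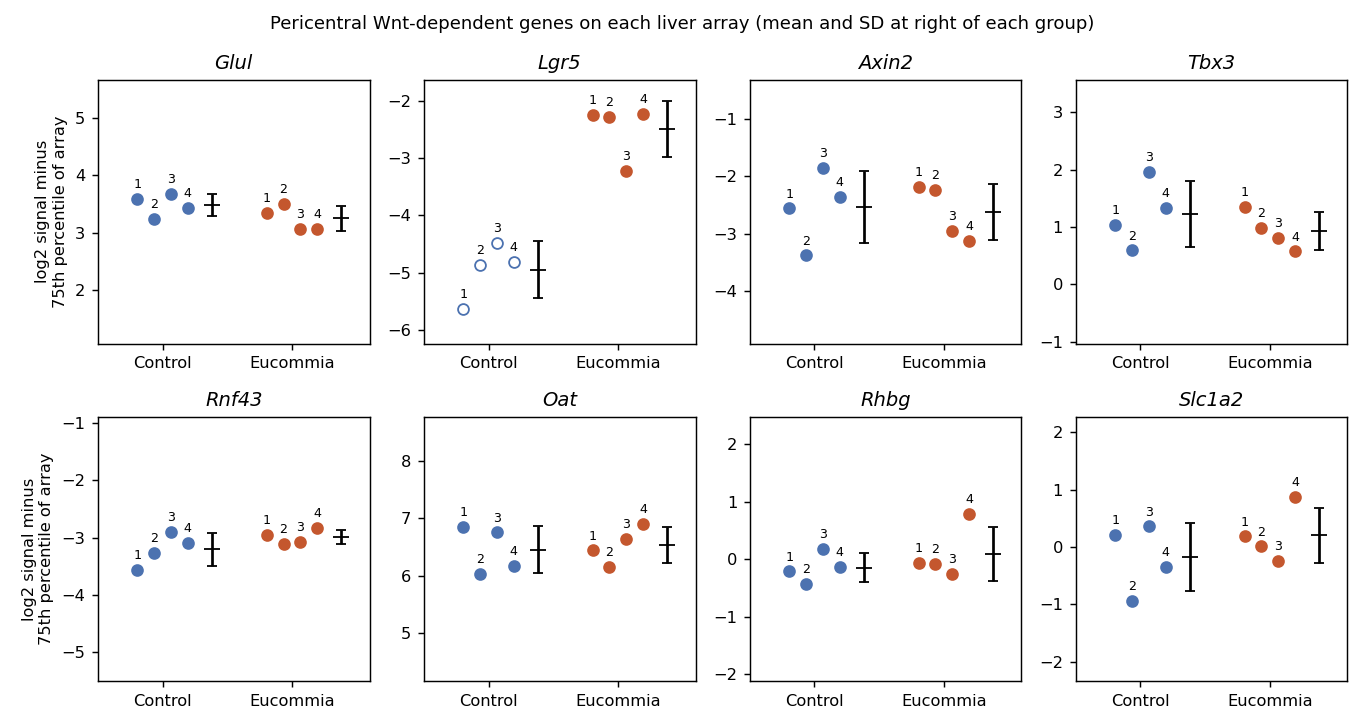
Log2 signal (minus the 75th percentile of the array) of the probe that represents each gene, for Control (blue) and Eucommia (orange) arrays. Small numbers give the replicate, open points mark arrays where the gene was not well above background, and bars at the right of each group are the mean and SD of 4 arrays. Every panel spans the same log2 range. The groups separate for Lgr5 and overlap for the other 7 genes.

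The receptors and feedback regulators of the pathway came first. LGR5 binds R-spondin and thereby keeps Wnt receptors at the cell surface. Its log2 signals were -5.64, -4.86, -4.48 and -4.81 on the Control arrays and -2.25, -2.28, -3.23 and -2.23 on the Eucommia arrays. All 4 Eucommia values lay above all Control values, with Eucommia replicate 3 the lowest of its group. The mean rose from -4.94 ± 0.49 to -2.50 ± 0.49 (SD, n = 4), a difference of 2.45 ± 0.30 (SE) with a 95% interval from 1.77 to 3.12 (adjusted p = 0.000307 by limma).

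The size of that difference depends on values under the detection limit. Lgr5 was well above background on 0 of 4 Control arrays and 4 of 4 Eucommia arrays, so it entered the test through the Eucommia arrays alone. In linear units its signal was 5.61, 7.83, 10.6 and 9.26 on Control arrays, where the lowest signal well above background ran from 11.2 to 13.7. On Eucommia arrays it was 50.3, 46.8, 24.5 and 46.7, where that limit ran from 5.69 to 6.05. The Eucommia signals were thus also above the limit of the Control slide. Setting each Control array at its own limit, Lgr5 was at least 3.50-fold higher in the Eucommia group. That bound holds only for this scaling and background subtraction. Of the genes with the same detection pattern, 2064 in all, 74.2% were higher. The reverse pattern, above background on no Eucommia array, was met by only 3 genes. With normexp background correction and quantile normalization the difference of Lgr5 was 0.59 (adjusted p = 0.00104 by limma). Over the 18 settings that gave a value its adjusted p by limma ran from 0.000118 to 0.00423. As Lgr5 was tested only because of the Eucommia arrays, that range is no sign of stability. When detection on all 8 arrays was required, Lgr5 was not tested.

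**Figure D2:**
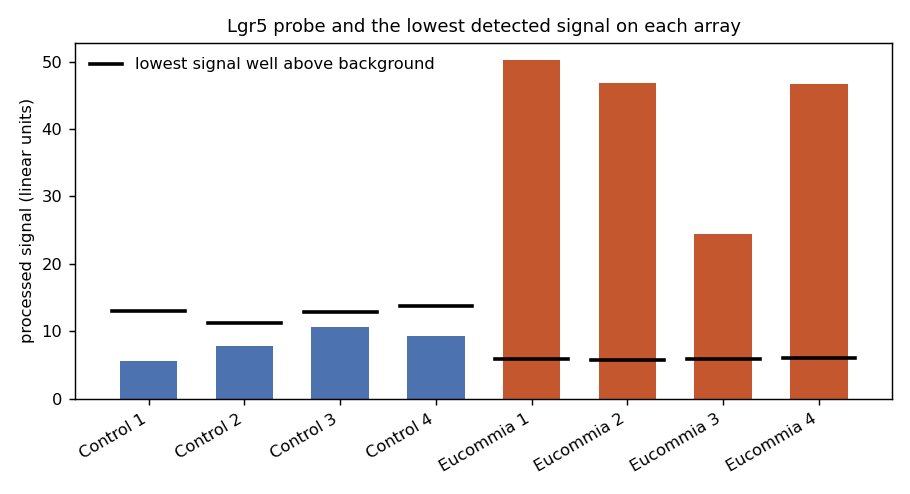
Processed signal of the Lgr5 probe in linear units on each array (bars, Control blue and Eucommia orange). Black lines mark the lowest signal well above background on the same array. The Control bars lie below their lines and the Eucommia bars, from 24.5 to 50.3, lie above theirs.

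RNF43 is a ubiquitin ligase that removes Wnt receptors from the cell surface and is opposed by LGR5 with R-spondin. Rnf43 signals were -3.56, -3.27, -2.89 and -3.09 on Control arrays and -2.95, -3.11, -3.08 and -2.84 on Eucommia arrays. The groups overlapped, and Control replicate 1 was the lowest of all. The difference of 0.21 ± 0.15 (SE) did not pass (95% interval -0.12 to 0.55, adjusted p = 0.350 by limma), and it fell to between -0.05 and -0.01 with quantile normalization, median centring or normexp.

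Axin2, a scaffold of the complex that degrades beta-catenin, is itself switched on by the pathway and is a common readout of it. Its signals were -2.56, -3.38, -1.86 and -2.35 on Control arrays and -2.19, -2.23, -2.95 and -3.12 on Eucommia arrays. The spread within each group was far wider than the gap between the means. The difference was -0.09 ± 0.34 (SE) with a 95% interval from -0.86 to 0.68 (adjusted p = 0.886 by limma). These arrays could therefore hide a change of Axin2 to 0.552-fold or to 1.61-fold. The sign of the Axin2 difference turned when Control replicate 3 (0.14), Eucommia replicate 3 (0.02) or Eucommia replicate 4 (0.08) was left out.

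TBX3 is a transcription factor of the T-box family that Wnt signalling induces in pericentral hepatocytes. Tbx3 signals were 1.03, 0.59, 1.96 and 1.33 on Control arrays and 1.35, 0.98, 0.81 and 0.57 on Eucommia arrays. Control replicate 3 stood highest, and the other Control arrays lay within the Eucommia range. The difference was -0.30 ± 0.28 (SE, 95% interval -0.95 to 0.34, adjusted p = 0.499 by limma), and without Control replicate 3 it was -0.06.

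Among the metabolic genes, Glul encodes glutamine synthetase, which joins ammonium to glutamate and is the classic mark of the innermost hepatocytes. Its brighter probe gave 3.58, 3.23, 3.67 and 3.43 on Control arrays and 3.35, 3.50, 3.06 and 3.07 on Eucommia arrays. The Eucommia group held the lowest values and overlapped the Control range. The difference was -0.23 ± 0.14 (SE, 95% interval -0.55 to 0.09, adjusted p = 0.278 by limma), or 0.850-fold with bounds of 0.681 and 1.06. The other Glul probe gave nearly the same difference, -0.23 ± 0.23, with Eucommia replicate 4 low at 2.15 beside 2.96 to 3.23 on the other Eucommia arrays. Glul passed as lower in 1 of 19 alternative settings, median centring, at -0.49 (adjusted p = 0.0241 by limma). That scaling also moved the median difference of all genes from 0.02 to -0.24, so relative to the median of all genes Glul differed by about the same amount under both.

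OAT, ornithine aminotransferase, feeds ornithine into glutamate inside mitochondria and so supplies glutamine synthetase. Oat signals by the brighter probe were 6.85, 6.03, 6.75 and 6.17 on Control arrays and 6.44, 6.16, 6.63 and 6.89 on Eucommia arrays. The groups covered almost the same range. The difference was 0.08 ± 0.23 (SE, 95% interval -0.43 to 0.60, adjusted p = 0.837 by limma), and the other probe gave 0.12 ± 0.29. Its sign turned with median centring (-0.18) and without Control replicate 2 (-0.06), Control replicate 4 (-0.01) or Eucommia replicate 4 (-0.04).

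RHBG, an ammonium transporter of the Rhesus family, and SLC1A2, a glutamate transporter also known as GLT-1, bring the substrates of glutamine synthetase into the cell. Rhbg signals were -0.21, -0.43, 0.18 and -0.13 on Control arrays and -0.07, -0.08, -0.26 and 0.78 on Eucommia arrays. Slc1a2 signals were 0.21, -0.94, 0.36 and -0.34 on Control arrays and 0.19, 0.01, -0.25 and 0.87 on Eucommia arrays. Eucommia replicate 4 was the highest array for both, and the other 3 Eucommia arrays lay inside the Control range. The Rhbg difference was 0.24 ± 0.23 (SE, 95% interval -0.29 to 0.77, adjusted p = 0.509 by limma) and that of Slc1a2 was 0.38 ± 0.32 (-0.35 to 1.12, adjusted p = 0.448). Without Eucommia replicate 4 the differences were 0.01 for Rhbg and 0.16 for Slc1a2, and without Control replicate 2 they were 0.15 and 0.13. With median centring Rhbg was at -0.01 and Slc1a2 at 0.13.

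**Figure D3:**
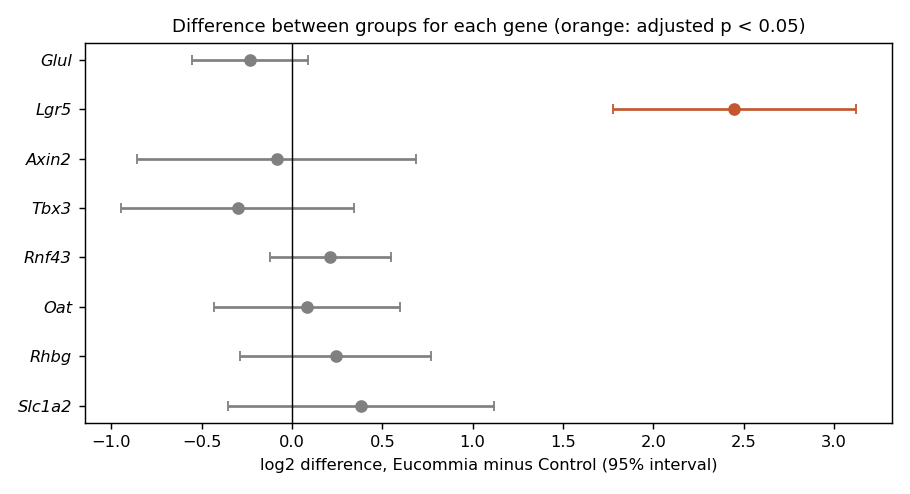
Difference between the groups for each gene (log2, Eucommia minus Control) with its 95% interval from limma, 4 arrays per group. The interval of Lgr5 lies from 1.77 to 3.12, and the intervals of the other 7 genes include 0. Lgr5 was below background on all Control arrays, so the size of its difference depends on values under the detection limit. With normexp and quantile normalization it was 0.59.

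The genes other than Lgr5 also varied between arrays of 1 group, and several were high or low on the same arrays. Of the 7 members above background on all arrays, 6 were highest among the Control arrays on replicate 3, and 6 were lowest on replicate 2. Over all 20100 genes above background on every array, replicate 3 was the highest Control array for 24.3% and replicate 2 the lowest for 15.1%. The exceptions were Oat, highest on Control replicate 1, and Rnf43, lowest there. Among the other pericentral hepatocyte genes, 7 of 16 were highest on Control replicate 3 and 8 of 16 lowest on replicate 2. Among periportal hepatocyte genes these counts were 3 and 1 of 18. In the Eucommia group the members split: Rnf43, Oat, Rhbg and Slc1a2 were highest on replicate 4, where Axin2 and Tbx3 were lowest. Replicate 4 was also the highest Eucommia array for 40.3% of all genes. These counts were made after the values were seen and were not tested.

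**Figure D4:**
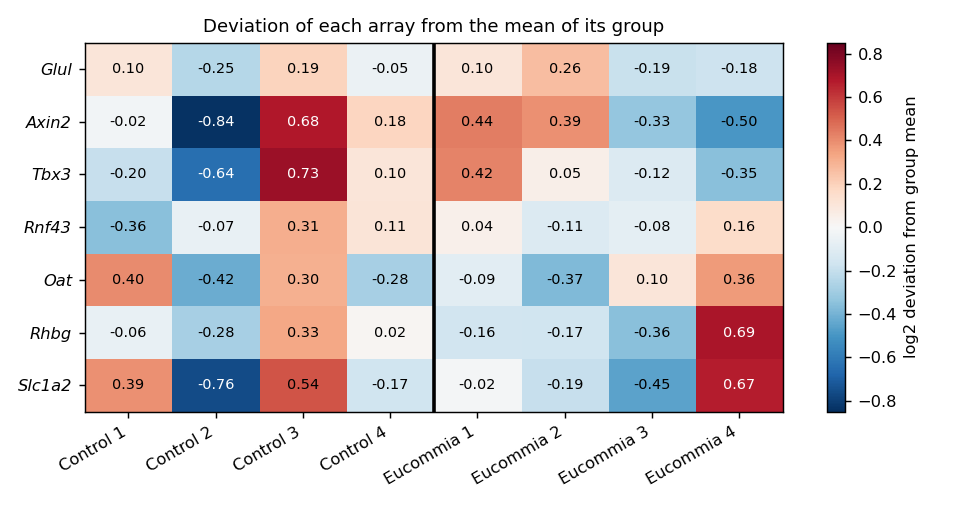
Deviation of each array from the mean of its group (log2, red above and blue below) for the 7 genes above background on all arrays. Control replicate 2 is blue in every row and Control replicate 3 red in every row, while on Eucommia replicate 4 Glul, Axin2 and Tbx3 are below their mean and the other 4 genes above it.

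Once the mean of each group was subtracted, Axin2 and Tbx3 followed each other closely over the 8 arrays (Pearson's r = 0.94, Spearman's rho = 0.95). So did Glul and Axin2 (r = 0.89, rho = 0.88) and Rhbg and Slc1a2 (r = 0.84, rho = 0.90). Oat and Slc1a2 came next (r = 0.81, rho = 0.79), while Glul and Oat did not follow each other (r = 0.06, rho = 0.10). Of the 21 pairs of members, 20 had a positive r. In an exact permutation test that exchanged arrays within groups, 2-sided, the p for Axin2 with Tbx3 was 0.00521 for r and 0.00347 for rho. Adjusted over the 21 pairs of members these became 0.0547 and 0.0729, and 0 pairs passed. For Rhbg with Slc1a2 the exact permutation p was 0.00521 for r and 0.00868 for rho, adjusted 0.0547 and 0.0911. For Glul with Axin2 the exact permutation p was 0.0226 for r and 0.0278 for rho, adjusted 0.158 and 0.194. For Oat with Slc1a2 the exact permutation p was 0.0538 for r and 0.0382 for rho, adjusted 0.213 and 0.201. For Glul with Oat the exact permutation p was 0.903 for r and 0.837 for rho, adjusted 0.983 and 1.0. Without the 2 arrays farthest from the median of the first gene, r was 0.86 for Axin2 with Tbx3, 0.68 for Rhbg with Slc1a2, 0.88 for Glul with Axin2 and 0.09 for Glul with Oat. With the other Glul probe, r with Axin2 was 0.76, and the probes of Glul correlated at 0.71 with each other. All of these points share their arrays, so differences in array quality enter both genes of a pair.

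Searched over 9965 other genes with a symbol, the patterns most like that of Glul were those of Etv6 (r = 0.98, rho = 0.93), Rbm4b (r = 0.97, rho = 0.95) and Rnf40 (r = 0.93, rho = 0.98), given as a description over 8 arrays. ETV6 is a transcription factor, RBM4B an RNA-binding protein and RNF40 a ubiquitin ligase. Axin2 ranked 7 in that list and Tbx3 138, while Slc1a2 ranked 1266, Oat 3706, Rhbg 4032 and Rnf43 4294. The 99th percentile over all genes searched was an r of 0.74.

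Glul and Axin2 had one of the higher correlations among the members, although it did not pass, and the stretches before and after their start sites are shown, from RefSeq on build GRCr8, 5′ to 3′ on the strand of the gene, each with 250 bases before the start and 50 from it. Capitals mark matches to the core letters bound by TCF and LEF, the DNA-binding partners of beta-catenin: CTTTGAT, or its variant CTTTGAA, or the variant with the letters CTTTGTT, on either strand and counted together. Positions count from the start site, with negative numbers before it. Glul has 2 windows, of which chr13:68575816-68576115 holds 0 matches and is not printed. The Glul window printed is chr13:68519250-68519549 (plus strand), chosen because it holds 1 match, to CTTTGAT on the opposite strand, with its first base at -230. The 2 Glul windows lie at separate, distant start sites, and which start is used in these livers was not tested. The Axin2 window is chr10:94398535-94398834 (plus strand) and holds 2 matches, to CTTTGAA at -232 and to CTTTGAT at -132.
Glul: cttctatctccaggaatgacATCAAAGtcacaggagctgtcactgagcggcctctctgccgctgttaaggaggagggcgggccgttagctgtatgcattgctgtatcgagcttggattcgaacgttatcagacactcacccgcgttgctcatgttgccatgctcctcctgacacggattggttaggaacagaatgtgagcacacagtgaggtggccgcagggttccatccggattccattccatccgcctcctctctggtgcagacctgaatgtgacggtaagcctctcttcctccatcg
Axin2: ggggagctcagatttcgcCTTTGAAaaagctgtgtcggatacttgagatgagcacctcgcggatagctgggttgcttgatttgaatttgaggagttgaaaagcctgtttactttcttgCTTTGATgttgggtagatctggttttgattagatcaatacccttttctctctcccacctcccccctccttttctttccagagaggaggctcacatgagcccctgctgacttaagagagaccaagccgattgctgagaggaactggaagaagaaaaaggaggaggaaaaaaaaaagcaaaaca
Windows were at hand for 6 of the 8 genes, 8 windows in all, but not for Lgr5 or Tbx3. Of these windows 3 held a match, the third being 1 of the 2 windows of Slc1a2. Of all 33469 windows of this length, 14.1% held at least 1 of these motifs. A match of letters is a description and not a binding site, and windows without one say nothing about the factor.

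Genes around the members in the pathway were taken from lists. The counts of each list are to be read beside 18.4% higher and 6.17% lower over all genes tested. Of Wnt ligands, R-spondins and their secretion factors 6 of 23 could be tested, since 10 had no probe named here and 7 were above background on too few arrays, Wnt9b among them. Of the 6, 1 was higher and 1 lower, with a median difference of -0.10 beside 0.02 for all genes. Rspo3, the R-spondin of the central vein, was the lower one. Its signals were -1.21, -1.96, -1.02 and -2.10 on Control arrays and -2.35, -2.27, -2.36 and -3.16 on Eucommia arrays, and the groups did not overlap. The fall was -0.96 ± 0.29 (SE, adjusted p = 0.0408 by limma). Leaving out Control replicate 1, Control replicate 3 or any 1 of the Eucommia arrays ended the call (adjusted p 0.0588 to 0.0945), as did a 75th percentile over commonly detected probes (-0.93, adjusted p = 0.0545). It stayed negative in all 19 settings, from -1.22 to -0.56. Wnt3 was higher by 1.11 ± 0.29 (adjusted p = 0.0223 by limma) but lay below background on all Control arrays, and no fold could be bounded. The call of Wnt3 ended when Control replicate 4 was left out (adjusted p = 0.0502) and when Eucommia replicate 4 was (adjusted p = 0.0515). With normexp its difference was 0.12 (adjusted p = 0.168 by limma). Wls, which carries Wnt proteins to the cell surface (-0.18 ± 0.12, SE), and Wnt4 (0.26 ± 0.18) did not pass.

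Beside the fall of Rspo3, the other tested genes listed as marks of central vein endothelium gave -0.27 ± 0.17 (SE) for Thbd and 0.10 ± 0.14 for Cdh13, and neither passed. The summed level of these 3 genes (log2 of the sum) ran from 1.06 to 1.53 on Control and from 0.66 to 1.05 on Eucommia arrays. Thbd, the brightest probe, makes up most of that sum (Control mean 0.87, beside -1.57 for Rspo3 and -3.34 for Cdh13). Such sums follow the brightest probes and do not measure the amount of a cell type. Of the general endothelial markers 1 of 5 was higher, the junction protein gene Cdh5 (1.01 ± 0.09 SE, adjusted p = 3.79e-05 by limma), and 0 were lower (2 higher and 2 lower by unadjusted p under 0.05), with sums of 6.30 to 6.58 on Control and 6.14 to 6.34 on Eucommia arrays. The receptor gene Kdr, the brightest of them (Control mean 6.28), makes up most of that sum. Stellate cell and fibroblast markers ran from 3.49 to 3.94 and from 4.13 to 4.36, with 1 of 6 higher, the collagen gene Col1a1 (0.83 ± 0.16 SE), which did not pass when its probes were averaged (0.31, adjusted p = 0.0834 by limma). By unadjusted p under 0.05, 4 of these 6 were higher and 0 lower, with a median of 0.41. The part of such cells in the values of Rspo3 or the members was not tested.

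Among Wnt receptors and coreceptors, 1 of 8 tested was higher and 0 lower (the same by unadjusted p under 0.05), with a median of 0.03. Fzd2, a Frizzled receptor, rose by 0.75 ± 0.16 (SE, adjusted p = 0.00838 by limma), or 0.22 with normexp, where it did not pass (adjusted p = 0.0553). Fzd1 (0.03 ± 0.17, SE) and Lgr4 (-0.25 ± 0.15), the relative of Lgr5 that hepatocytes use widely, did not pass.

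In the beta-catenin machinery 2 of 17 were lower and 0 higher (3 and 2 by unadjusted p under 0.05), with a median of 0.04. Btrc, the ubiquitin ligase subunit that recognises beta-catenin, fell by 0.70 on the log2 scale (SE 0.18, adjusted p = 0.0188 by limma), and Apc, a scaffold of the degradation complex, fell by 0.45 (SE 0.14, adjusted p = 0.0465). Leaving out Control replicate 4, Eucommia replicate 1 or Eucommia replicate 4 ended the call of Btrc (adjusted p 0.0502 to 0.0534). Apc did not pass in 9 of 19 settings, among them each fit that left out a Control array other than replicate 4 or a Eucommia array other than replicate 1 (adjusted p 0.0890 to 0.115). Dvl1 (0.08 ± 0.09, SE) and Axin1 (0.17 ± 0.08) did not pass, though the groups of Axin1 did not overlap. Axin1 passed as higher with quantile normalization (0.23, adjusted p = 0.0489 by limma) and normexp (0.32, adjusted p = 0.00124), and was at -0.08 with median centring.

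Of inhibitors and feedback targets 3 of 8 were higher and 0 lower, the same by unadjusted p under 0.05, with a median of 0.30. Over all genes tested, 18.4% were higher and 6.17% lower. Apcdd1, an inhibitor at the cell membrane, rose by 0.82 ± 0.16 (SE, adjusted p = 0.00516 by limma), and Nkd2, an antagonist that binds Dishevelled, by 0.69 ± 0.11 (adjusted p = 0.00199). Sfrp5, a secreted Frizzled-related inhibitor, rose by 1.39 ± 0.25 (adjusted p = 0.00293) but its probe was above background on only 1 of 4 Control arrays. With normexp the differences were 0.36 for Apcdd1, 0.14 for Nkd2 (adjusted p = 0.0881) and 0.26 for Sfrp5. Notum, a secreted enzyme that inactivates Wnt and is itself a pericentral target gene, was at -0.07 ± 0.16 (SE), and the cyclin gene Ccnd1 at 0.25 ± 0.33, and neither passed. The median of this list was 0.50 without Control replicate 2, 0.04 with median centring and -0.01 with no filter on dim probes.

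**Figure D5:**
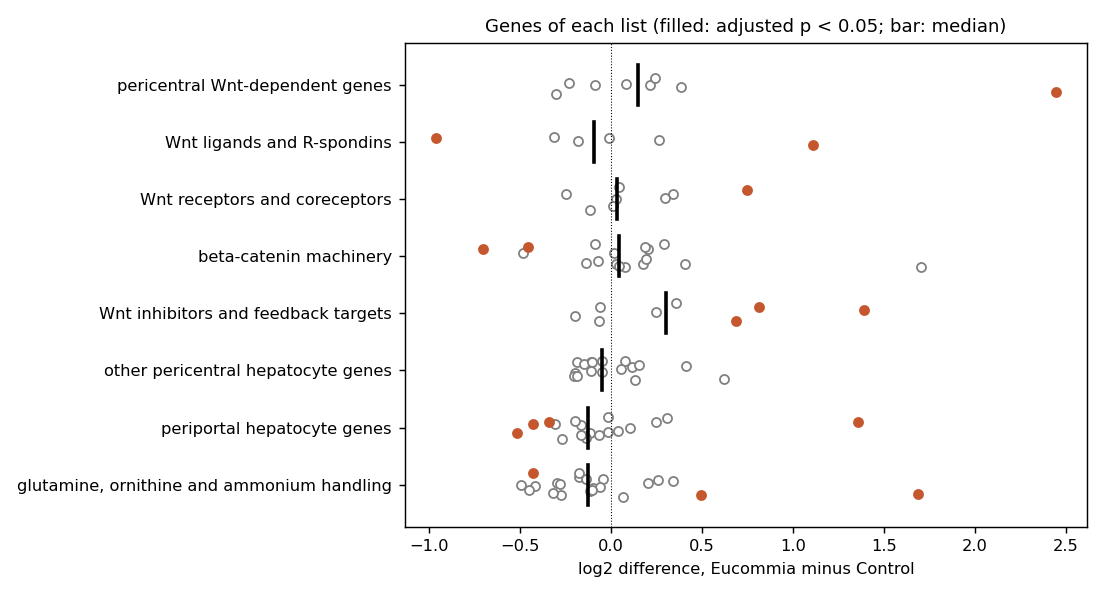
Difference between groups (log2, Eucommia minus Control) for every tested gene of the pericentral genes and of the 7 pathway and zonation lists, without the cell type markers. Filled points passed an adjusted p of 0.05, open points did not, and bars are list medians, which lie between -0.13 and 0.30. The filled point of the top row is Lgr5 at 2.45, whose Control signals were below background.

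The other pericentral hepatocyte genes, which are not all driven by Wnt alone, gave 0 of 17 higher and 0 lower by limma, and also 0 and 0 by unadjusted p under 0.05. With median centring 6 were lower and with normexp 1. Their median difference was -0.05. The ethanol-oxidising Cyp2e1 gave -0.11 ± 0.17 (SE) and Alad, of haem synthesis, -0.20 ± 0.13. Periportal hepatocyte genes gave 1 of 18 higher and 3 lower (1 and 5 by unadjusted p under 0.05) with a median of -0.13, beside 8 lower with median centring and 1 lower without Eucommia replicate 2. The aldehyde dehydrogenase Aldh1b1 rose by 1.35 ± 0.12 (SE, adjusted p = 5.51e-05 by limma). Otc, of the urea cycle, was at -0.43 ± 0.10 (adjusted p = 0.0125), the immunoglobulin transporter Pigr at -0.52 ± 0.13 (adjusted p = 0.0170), and the protease gene Ctsc at -0.34 ± 0.10 (adjusted p = 0.0354). Pigr did not pass without Eucommia replicate 2 (adjusted p = 0.0524), and Ctsc did not in 10 of 19 settings, including the fits without Control replicate 3 or 4 or without any 1 of the Eucommia arrays (adjusted p 0.0527 to 0.0937). Alb (-0.17 ± 0.09) and the gluconeogenic enzyme gene Fbp1 (-0.20 ± 0.08) did not pass. The difference between these lists was not tested.

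Genes that handle glutamine, glutamate, ornithine and ammonium beside the members gave 2 of 22 higher and 1 lower (2 and 4 by unadjusted p under 0.05), with a median of -0.13. With median centring 1 was higher and 9 lower. Pycr1, which makes proline in mitochondria, rose by 1.69 ± 0.14 (SE, adjusted p = 3.19e-05 by limma). Its signals rose from -2.73 ± 0.20 to -1.05 ± 0.21 (SD, n = 4), with the groups apart. Otc, the lower one, belongs to the periportal list too. Glud1, glutamate dehydrogenase (-0.18 ± 0.10, SE), and Arg1, arginase (-0.14 ± 0.11), did not pass.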

How the data were processed

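Liver RNA (500 ng per array) was measured on 8 Agilent 1-colour arrays. The authors deposited 1 scanner file per array with intensity per spot, written by Agilent Feature Extraction (version 10.1.1.1, per the file headers), background-subtracted and detrended within each array but not normalized between arrays. Control, detection and outlier flags (values of another kind) come from the same deposited files. The deposited series table and the scanner files held equal values for 100% of non-control spots.

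Signals were put on the log2 scale, each array's 75th percentile was subtracted, control and outlier spots were left out, and spots of a probe were averaged. No spot was saturated. Probes well above background on at least 4 of 8 arrays were kept (27724 of 41012). Accessions named 16336 probes (39.8%) through the RefSeq gene table of GRCr8, but the array grid follows a different build, so coordinates are given only for RefSeq promoter windows on GRCr8. Each gene was represented by its brightest probe, averaged over arrays, and each unnamed probe by itself. The comparison used limma 3.58.1 (R 4.3.3), 2-sided, with Benjamini-Hochberg adjustment over all genes. The test was checked on simulated data with independent noise and no detection limit or slide effect, so that check does not cover these. Where a gene was below background on all arrays of a group, each array was set at the higher of its lowest signal well above background and the gene's own signal. This gives a lower bound of the fold for the main scaling and background subtraction. The number of arrays limits the precision.

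Members and lists were chosen with earlier results of these data known. Text names all members and, of each pathway list, up to 4 genes past the threshold by smallest p and the 2 brightest that did not pass; marker genes were named where a member or Rspo3 is set beside them. The alternatives tried were median centring, quantile normalization, a percentile over commonly detected probes, cyclic loess, normexp (offset 50, on median spot signals) with quantile normalization, the series table, no or a stricter filter, the mean over probes, trended robust variance, a replicate block, and each array left out with the tested probes kept. The values of 1 list gene are not reported here.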

Additional observations from a re-analysis of the deposited data

Results flagged for a closer look

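Some arrays stood far from the other 3 of their group, with a gap above Dixon's critical value of 0.829 times the range. Chance alone gives this in about 1 of 20 groups. Among the 8 pericentral genes the value was that of Lgr5 on Eucommia replicate 3, at -3.23, and the difference of Lgr5 without that array was 2.69. Of the list genes, only those named in the report were screened, and others may hold such values. Rspo3 was low on Eucommia replicate 4 (-3.16), Fzd2 on Control replicate 1 (-2.78) and Apc on Control replicate 4 (-2.72). Without the array in question, the difference was -0.76 for Rspo3 (adjusted p = 0.0921 by limma). Axin1 was high on Eucommia replicate 4 (3.31) and Ctsc low on Eucommia replicate 3 (5.14). Alb (9.79) and Arg1 (8.83) were low on Control replicate 1, and the endothelial receptor gene Kdr was high on Eucommia replicate 4 (6.16).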

How the results depend on the processing

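The difference of Lgr5 ran from 0.59 to 2.69 over the 18 settings that gave it a value. Since it was tested only because of the Eucommia arrays, its calls there are no sign of stability. When probes had to be above background on all 8 arrays it was not tested, and 0 members were higher. With median centring 1 member, Glul, was lower. In the other settings 1 member was higher and 0 lower, also without each array in turn (1 to 1 higher and 0 to 0 lower). Of all genes tested, 4623 were higher and 1551 lower. With detection on all 8 arrays 2323 were higher. The lower count was 2956 with quantile normalization, 7954 with median centring, 2435 with cyclic loess, 2715 with normexp and 7380 with no filter. Without single arrays 4021 to 4603 were higher and 913 to 1338 lower, with the lowest counts of lower genes without Eucommia replicate 2 (913) and 3 (1016). By median centring the split turns from mostly higher (4623 against 1551) to mostly lower (3788 against 7954), as it does with no filter (5389 against 7380). With quantile normalization it was 4154 against 2956 and with normexp 3931 against 2715. Deviations of same-numbered arrays correlated at -0.10 to -0.03, and best partners did not follow the numbers. This gave no sign of pairing by number over all genes but cannot exclude pairing with a small effect. The replicate block gave 4149 higher and 988 lower genes, with 1 member higher and 0 lower. The cause of these shifts was not tested. Signals near background limit what can be said of Lgr5, Wnt3, Sfrp5, Cftr and Pnlip.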
